A study of Homo sapiens with 26 samples.

Results

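The respiratory chain subunits described here are 56 genes, of 19704 gene symbols in the table. They were taken by name: 13 subunits encoded in mitochondrial DNA (symbols that start with MT-) and 43 encoded in the nucleus. All 56 were found, each on 1 row, and all 56 passed the filter of a mean of at least 1 FPKM (fragments per kilobase and per mega of mapped fragments, a level per length). They are compared between acidic and neutral medium, complex by complex and hour by hour.

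The cells were U2OS, an established human osteosarcoma line, carrying the luciferase clock reporter Arntl::dLUC, and 26 libraries of polyadenylated RNA were sequenced. In the pH 7.4 group and in the pH 6.3 group the DMEM medium held 5% FBS, 25 mM PIPES, 25 mM HEPES and 0.1 µM dexamethasone, a synthetic glucocorticoid that synchronises circadian clocks. Dishes were sealed and kept without the usual carbon dioxide. Each pH had 13 libraries, 1 every 4 h from 4 to 52 h, 1 dish each. One set of plates gave the samples of 4 to 24 h and another those of 28 to 52 h, so time after the change and plate set cannot be told apart where those intervals are compared. No time point had a second library at the same pH, so errors and p-values rest on how the media differed from one time to the next.

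The respiratory chain sits in the inner mitochondrial membrane. Complexes I, III and IV pass electrons to oxygen and pump protons, complex II feeds electrons in from succinate without pumping, and complex V, the ATP synthase, uses the proton gradient to make ATP. Complex II is built from nuclear genes alone, while each of the others mixes subunits of both genomes. The mitochondrial subunits are cut out of long transcripts that run through many genes, 1 from each strand, with MT-ND6 on the strand opposite to the other subunits. Every nuclear subunit has a promoter of its own.

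The mitochondrial map shows how closely some of these genes are packed. By the GENCODE 29 annotation (GRCh38), 12 of the 13 are read in one direction and MT-ND6 in the other, and 6 of the 13 are annotated without a complete stop codon, which the poly(A) tail completes. A pair of overlaps is shown because the genes on each side of them are read from a single messenger and, below, moved by nearly the same amount. The first sequence is the 46 bases shared by MT-ATP8 and MT-ATP6 at chrM:8527-8572 (+), with the start codon of MT-ATP6 and the stop codon of MT-ATP8 in capitals. The second is the last 30 bases of MT-ND4L at chrM:10737-10766 (+), with the 7 bases that also begin MT-ND4 in capitals.
MT-ATP8/MT-ATP6: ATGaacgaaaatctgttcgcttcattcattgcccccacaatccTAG
MT-ND4L/MT-ND4: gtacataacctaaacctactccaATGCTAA

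All 13 mitochondrial subunits were lower at pH 6.3 than at pH 7.4, and the nuclear ones went both ways. The median difference, pH 6.3 minus pH 7.4 on the log2(FPKM + 1) scale, was -0.47 for the mitochondrial genes and 0.05 for the nuclear genes, against -0.12 for all 11838 genes tested. With limma, the time point as a block and Benjamini-Hochberg adjustment over all genes tested (threshold 0.05), 13 of 13 mitochondrial genes passed as lower. Among the nuclear genes 12 of 43 passed as higher, 15 as lower and 16 did not pass. Over all genes tested 22.4% passed as higher and 37.3% as lower, so the nuclear shares lie near the background and the mitochondrial share does not. Quantile normalization, which forces every library to the same highest values, left 7 mitochondrial genes past the test as lower. It ended the calls of MT-ATP6, MT-ATP8, MT-CO1, MT-CO2 and MT-ND4L (adjusted p from 0.392 to 1.0) and turned MT-ND4 to 0.26 higher. Scaling without mitochondrial genes left 7 nuclear genes past the test as higher. The nuclear median was then -0.02, against -0.19 for all genes tested. With upper-quartile scaling those medians were 0.13 and -0.05.

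**Figure D1:**
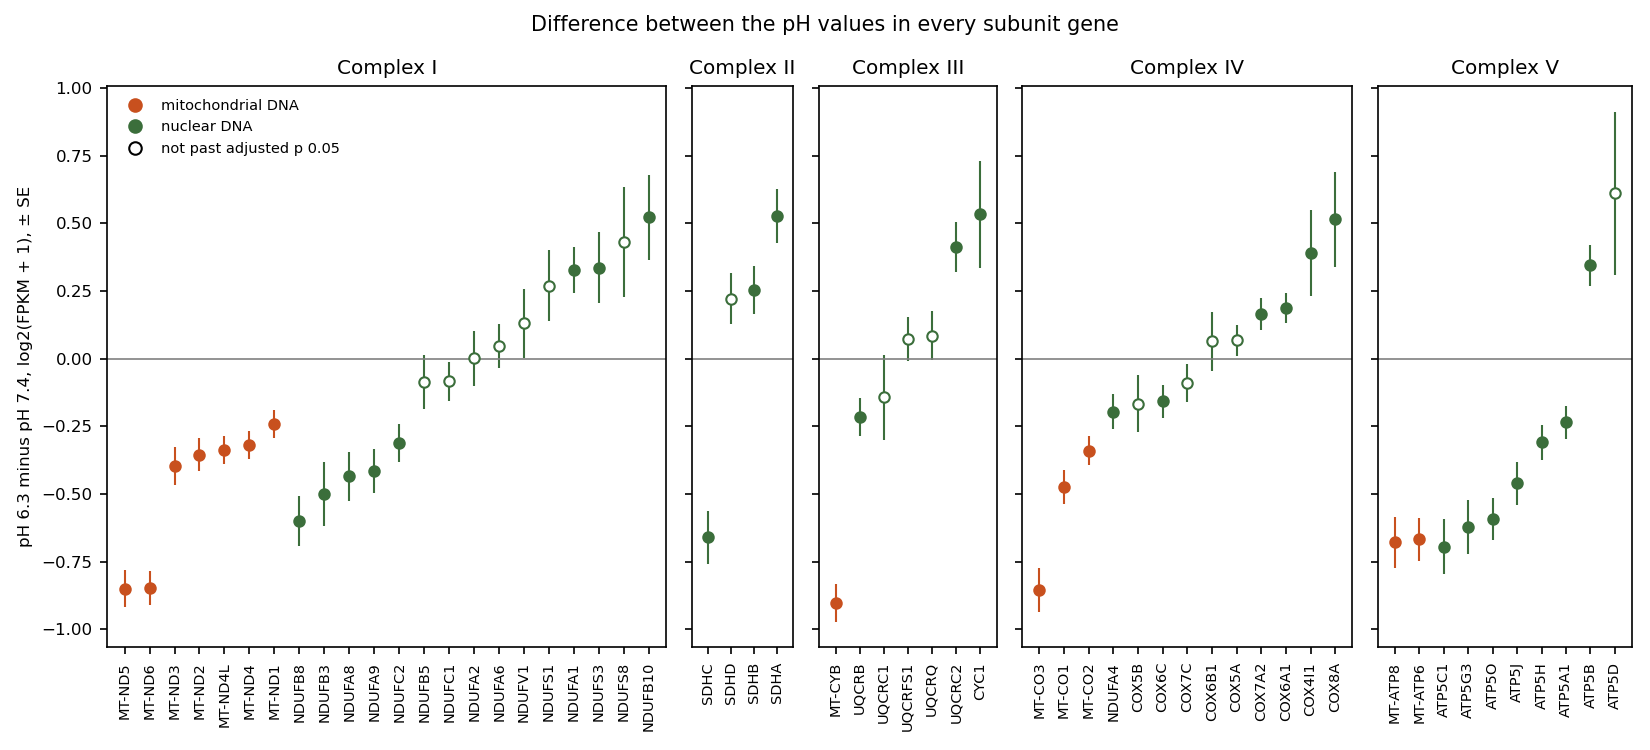
Difference between pH 6.3 and pH 7.4 in each of the 56 subunit genes (y axis, log2(FPKM + 1), point and SE over 13 time points), grouped by complex. Orange points are the 13 genes of mitochondrial DNA, all below 0; green points are the 43 nuclear genes, 12 of them past the test as higher and 15 as lower; open points did not pass.

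The groups did not overlap at all, over 13 libraries each, in 3 mitochondrial genes (MT-ND5, MT-ND6 and MT-CYB) and in no nuclear gene. Of all genes tested, 2.37% lay wholly lower at pH 6.3 and 1.28% wholly higher. At every one of the 13 time points 7 mitochondrial genes were lower at pH 6.3, as were the nuclear genes SDHC and ATP5O. The share of all genes tested that were lower at every time was not counted, so this count has no background.

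Complex I takes electrons from NADH, and its 7 mitochondrial subunits form the core of the membrane arm that moves protons. MT-ND1 (chrM:3307-4262), next to the quinone site, ranged from 3291 through a median of 3761 to 4203 FPKM at pH 7.4 and from 2815 through 3122 to 3701 at pH 6.3. Its difference of -0.24 ± 0.05 (SE) was the smallest of the 13 (adjusted p = 0.000926), and the groups overlapped. MT-ND2 (chrM:4470-5511), one of the pumping subunits, ran from 2663 through 3281 to 3700.2 FPKM at pH 7.4 and from 2070.3 through 2669.9 to 2842 at pH 6.3. The difference was -0.35 ± 0.06 (adjusted p = 0.000144), with overlap only through the neutral library of 28 h, the lowest of its group.

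MT-ND3 (chrM:10059-10404), a short hinge subunit, spanned 4429.9 to 6650.2 FPKM (median 5938) at pH 7.4 and 3403 to 5348 (median 4564) at pH 6.3, a difference of -0.40 ± 0.07 (adjusted p = 0.00019). The overlapping pair MT-ND4L (chrM:10470-10766) and MT-ND4 (chrM:10760-12137) differed by -0.34 ± 0.05 (adjusted p = 4.97e-05) and -0.32 ± 0.05 (adjusted p = 7.98e-05). MT-ND4L went from 12447, 14434 and 14816 FPKM (lowest, median and highest) at pH 7.4 to 9057, 10984 and 13839 at pH 6.3, and MT-ND4 from 8661, 9728 and 10313 to 6649, 7833 and 9766. In MT-ND4L and MT-ND4 only the acid library of 4 h reached into the neutral range. In MT-ND3 several acid libraries did, all of them above the low neutral library of 28 h.

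MT-ND5 and MT-ND6, end to end on opposite strands, stood apart from the other complex I genes. MT-ND5 (chrM:12337-14148, a pumping subunit) lay between 1417 and 1933 FPKM (median 1678) at pH 7.4 and between 749 and 1158 (median 955) at pH 6.3, a difference of -0.85 ± 0.07 (adjusted p = 1.55e-07). MT-ND6 (chrM:14149-14673) lay between 1745 and 2338 (median 2084) and between 895 and 1374 (median 1140.0), a difference of -0.85 ± 0.06 (adjusted p = 8.4e-08). Every acid library was below every neutral one in both genes. The strand setting of the counting is not given in the sources used here, so reads from opposite strands may not be separated. The level of MT-ND6 and the likeness of the pair are therefore uncertain.

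The 15 nuclear subunits of complex I had a median difference of 0.00, with 3 higher, 5 lower and 7 not past the test. NDUFB10, an accessory subunit of the membrane arm, was 41.0 to 63.3 FPKM (median 52.8) at pH 7.4 and 43.2 to 115 (median 72.7) at pH 6.3, a difference of 0.52 ± 0.16 (adjusted p = 0.00906). NDUFS3, a core subunit of the matrix arm, was 96.8 to 150.2 (median 129.7) and 121 to 226 (median 171), a difference of 0.34 ± 0.13 (adjusted p = 0.0367). Its call was lost on leaving out any of 7 single time points (28, 32, 36, 40, 44, 48 or 52 h). It was also lost with scaling without mitochondrial genes (adjusted p = 0.0784). NDUFA1 was the remaining one that rose (0.33 ± 0.09).

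Membrane-arm accessory subunits made up the largest falls. NDUFB8 went from 165 to 204 FPKM (median 188) at pH 7.4 to 96.4 to 195 (median 116) at pH 6.3, by -0.60 ± 0.09 (adjusted p = 4.41e-05). NDUFB3 went from 96.7 to 129.8 (median 115) to 43.2 to 119 (median 91.6), by -0.50 ± 0.12 (adjusted p = 0.00174). The highest acid library was that of 4 h in both, within the neutral range, and 12 of 13 times were lower. NDUFA8 (-0.43 ± 0.09), NDUFA9 (-0.42 ± 0.08) and NDUFC2 (-0.31 ± 0.07) fell as well. The core subunits NDUFV1 (0.13 ± 0.13), NDUFS1 (0.27 ± 0.13) and NDUFS8 (0.43 ± 0.20) did not pass. NDUFA2 (0.00 ± 0.10), NDUFA6 (0.05 ± 0.08), NDUFB5 (-0.09 ± 0.10) and NDUFC1 (-0.08 ± 0.07) did not pass either. Without the 28 h pair NDUFS8 passed as higher (0.56, adjusted p = 0.0164), and without the 12 h pair NDUFS1 did (0.34, adjusted p = 0.025).

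The 4 genes of complex II (succinate dehydrogenase), all nuclear, split by subunit. SDHA, the flavin-bearing catalytic subunit, was 27.8 to 46.9 FPKM (median 36.9) at pH 7.4 and 40.1 to 69.5 (median 54.3) at pH 6.3, a rise of 0.53 ± 0.10 (adjusted p = 0.000319). SDHB, the iron-sulfur subunit, was 153 to 193 (median 167) and 156 to 248 (median 202), a rise of 0.25 ± 0.09 (adjusted p = 0.0208). SDHB was no longer past the threshold when libraries were scaled without mitochondrial genes (adjusted p = 0.0758). SDHC, 1 of the 2 membrane anchors, was 119 to 156 (median 135) and 57.1 to 144 (median 80.7), a fall of -0.66 ± 0.10 (adjusted p = 3.48e-05), at 13 of 13 times. SDHD, the other anchor, differed by 0.22 ± 0.09 and did not pass (adjusted p = 0.0505). It passed as higher without the 8, 12, 16 or 20 h pair (adjusted p from 0.0101 to 0.0483) and with the GC correction (0.24, adjusted p = 0.0296), among other settings.

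Complex III hands electrons from ubiquinol to cytochrome c. Its only mitochondrial subunit, MT-CYB (cytochrome b, chrM:14747-15887), had the largest difference of the 13. It held between 4601 and 5131 FPKM (median 4979.7) at pH 7.4, and between 2244 and 4200.5 (median 2494) at pH 6.3, without overlap. The difference was -0.90 ± 0.07 (adjusted p = 1.15e-07), and the mean level fell by 45.7%. Its coefficient of variation over time was 3.17% in neutral and 20.7% in acidic medium.

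Of the 6 nuclear subunits of complex III, 2 rose, 1 fell and 3 did not pass. Those 3 were UQCRC1 (-0.14 ± 0.16), UQCRQ (0.08 ± 0.09) and UQCRFS1 (0.07 ± 0.08). Without the pairs at 8, 12, 20, 28, 44 and 48 h UQCRC1 passed as lower (-0.35, adjusted p = 0.00836). CYC1 (cytochrome c1, which passes electrons on to cytochrome c) went from 11.05 to 65.8 FPKM (median 29.5) at pH 7.4 to 27.4 to 71.4 (median 40.1) at pH 6.3, by 0.53 ± 0.20 (adjusted p = 0.0286). That call was lost without the 20, 32, 44 or 48 h pair. UQCRC2, a core protein, went from 117 to 162 (median 141) to 133 to 246 (median 194), by 0.41 ± 0.09 (adjusted p = 0.00126). UQCRB, a small subunit at the quinone pocket, went from 139 to 202 (median 179.8) to 117 to 211 (median 148), by -0.22 ± 0.07 (adjusted p = 0.0136), and was not past the threshold after a correction for GC content (adjusted p = 0.113). The acid and neutral ranges overlapped in CYC1, UQCRC2 and UQCRB.

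Complex IV, cytochrome c oxidase, reduces oxygen on a catalytic pair of subunits of mitochondrial origin, with MT-CO3 beside them. MT-CO1 (chrM:5904-7445), which holds the oxygen-binding site, ran from 7775 through 8836 to 9163 FPKM at pH 7.4 and from 4918 through 6244 to 8269 at pH 6.3, a difference of -0.47 ± 0.06 (adjusted p = 1.26e-05). MT-CO2 (chrM:7586-8269), which receives electrons from cytochrome c, ran from 12784 through 15186 to 17326 and from 9653 through 11642 to 14920.0, a difference of -0.34 ± 0.05 (adjusted p = 6.37e-05). MT-CO3 (chrM:9207-9990) ran from 10441 through 13221 to 14172 and from 5753 through 6902 to 11266, a difference of -0.86 ± 0.08 (adjusted p = 6.99e-07). MT-CO3 changed by more than the catalytic pair, and in all 3 the acid library of 4 h lay within the neutral range. In MT-CO2 that of 8 h did as well.

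The 10 nuclear subunits of complex IV had 4 rises, 2 falls and 4 that did not pass, with a median of 0.07. COX8A, a small structural subunit, was 51.1 to 265 FPKM (median 121) at pH 7.4 and 106 to 282 (median 151) at pH 6.3, a rise of 0.51 ± 0.18 (adjusted p = 0.0187). COX4I1, the regulatory subunit to which ATP binds, was 114 to 466 (median 314) and 266 to 470.1 (median 392), a rise of 0.39 ± 0.16 (adjusted p = 0.0452). COX6A1 (0.19 ± 0.06) and COX7A2 (0.16 ± 0.06) were the other rises, and neither passed with quantile normalization or with scaling without mitochondrial genes. NDUFA4, first described in complex I and counted here in complex IV, was 383 to 518 (median 435) and 317 to 533 (median 377), a fall of -0.20 ± 0.06 (adjusted p = 0.0142). COX6C was 547 to 731 (median 604) and 419.6 to 824 (median 522), a fall of -0.16 ± 0.06 (adjusted p = 0.0366). COX5A (0.07 ± 0.06), COX5B (-0.17 ± 0.10), COX6B1 (0.06 ± 0.11) and COX7C (-0.09 ± 0.07) did not pass. COX5B passed as lower with scaling without mitochondrial genes (-0.24, adjusted p = 0.0475). Without the pairs at 8, 12, 20, 28, 44 and 48 h it also did (adjusted p = 0.0317). COX7C passed as lower with quantile normalization (-0.28, adjusted p = 0.000807).

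Some nuclear calls of complex IV lay near the threshold and were lost on leaving out 1 time point. COX4I1 was not past the threshold without any 1 of 9 time points, and COX6C without any 1 of 8. With scaling without mitochondrial genes COX4I1 had an adjusted p of 0.071. After the GC correction NDUFA4 had an adjusted p of 0.272 and COX6C of 0.131. COX8A and CYC1 had transcripts of 58.6% and 61.8% GC and, with COX4I1, spread widely in neutral medium. COX8A reached 265 FPKM at 28 h and fell to 51.1 at 48 h there, times at which the library's levels rose (r = 0.65) and fell (r = -0.64) with transcript GC content across genes. With the GC correction COX8A differed by 0.45, CYC1 by 0.42 and COX4I1 by 0.39.

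In complex V both mitochondrial subunits fell, and of the 8 nuclear ones 6 fell, 1 rose and 1 did not pass. MT-ATP8 (chrM:8366-8572), a short stator subunit, ran from 23500.0 through 34567 to 38327 FPKM at pH 7.4 and from 13674 through 21425 to 29747 at pH 6.3, a difference of -0.68 ± 0.09 (adjusted p = 1.96e-05). MT-ATP6 (chrM:8527-9207), the proton channel, ran from 10012 through 11701 to 12677 and from 4973 through 7244 to 10224, a difference of -0.67 ± 0.08 (adjusted p = 4.99e-06). Both were lower at all 13 times. The acid library of 4 h lay within the neutral range in both, and that of 40 h in MT-ATP8. The 207 bases of MT-ATP8 include the 46 shared ones printed above, and how fragments there were divided is not given in the sources used here, so its level and the likeness of the pair are uncertain.

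Among the nuclear genes of complex V, ATP5B, the catalytic beta subunit, was the one that rose, from 554 to 793 FPKM (median 642) at pH 7.4 to 656 to 979 (median 829) at pH 6.3, by 0.34 ± 0.08 (adjusted p = 0.00116, and 0.159 with quantile normalization). ATP5C1, the gamma subunit that forms the rotor shaft, fell from 245 to 304 (median 286) to 129 to 331 (median 161), by -0.69 ± 0.10 (adjusted p = 3.23e-05). ATP5G3, one of 3 genes for the subunit of the proton-driven ring, fell from 203 to 241 (median 218) to 99.1 to 253 (median 126), by -0.62 ± 0.10 (adjusted p = 7.38e-05). In both, the acid libraries of 4 and 8 h exceeded every neutral library, and 11 of 13 times were lower. The alpha subunit ATP5A1 (-0.23 ± 0.06, adjusted p = 0.0913 with upper-quartile scaling) and the stalk subunits ATP5O (-0.59 ± 0.08), ATP5J (-0.46 ± 0.08) and ATP5H (-0.31 ± 0.07) fell too. ATP5D, the delta subunit, was scarce and uneven, from 0.718 to 21.4 FPKM in neutral medium, and did not pass (0.61 ± 0.30, adjusted p = 0.0903). It passed as higher without the 28 h pair (0.88, adjusted p = 0.00237), with the GC correction (0.41, adjusted p = 0.0425) and with quantile normalization (0.81, adjusted p = 0.0161). It also passed with upper-quartile scaling (adjusted p = 0.0461), without the pairs at 8, 12, 20 and 28 h (adjusted p = 0.0137) and without 44 and 48 h as well (adjusted p = 0.0305).

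**Figure D2:**
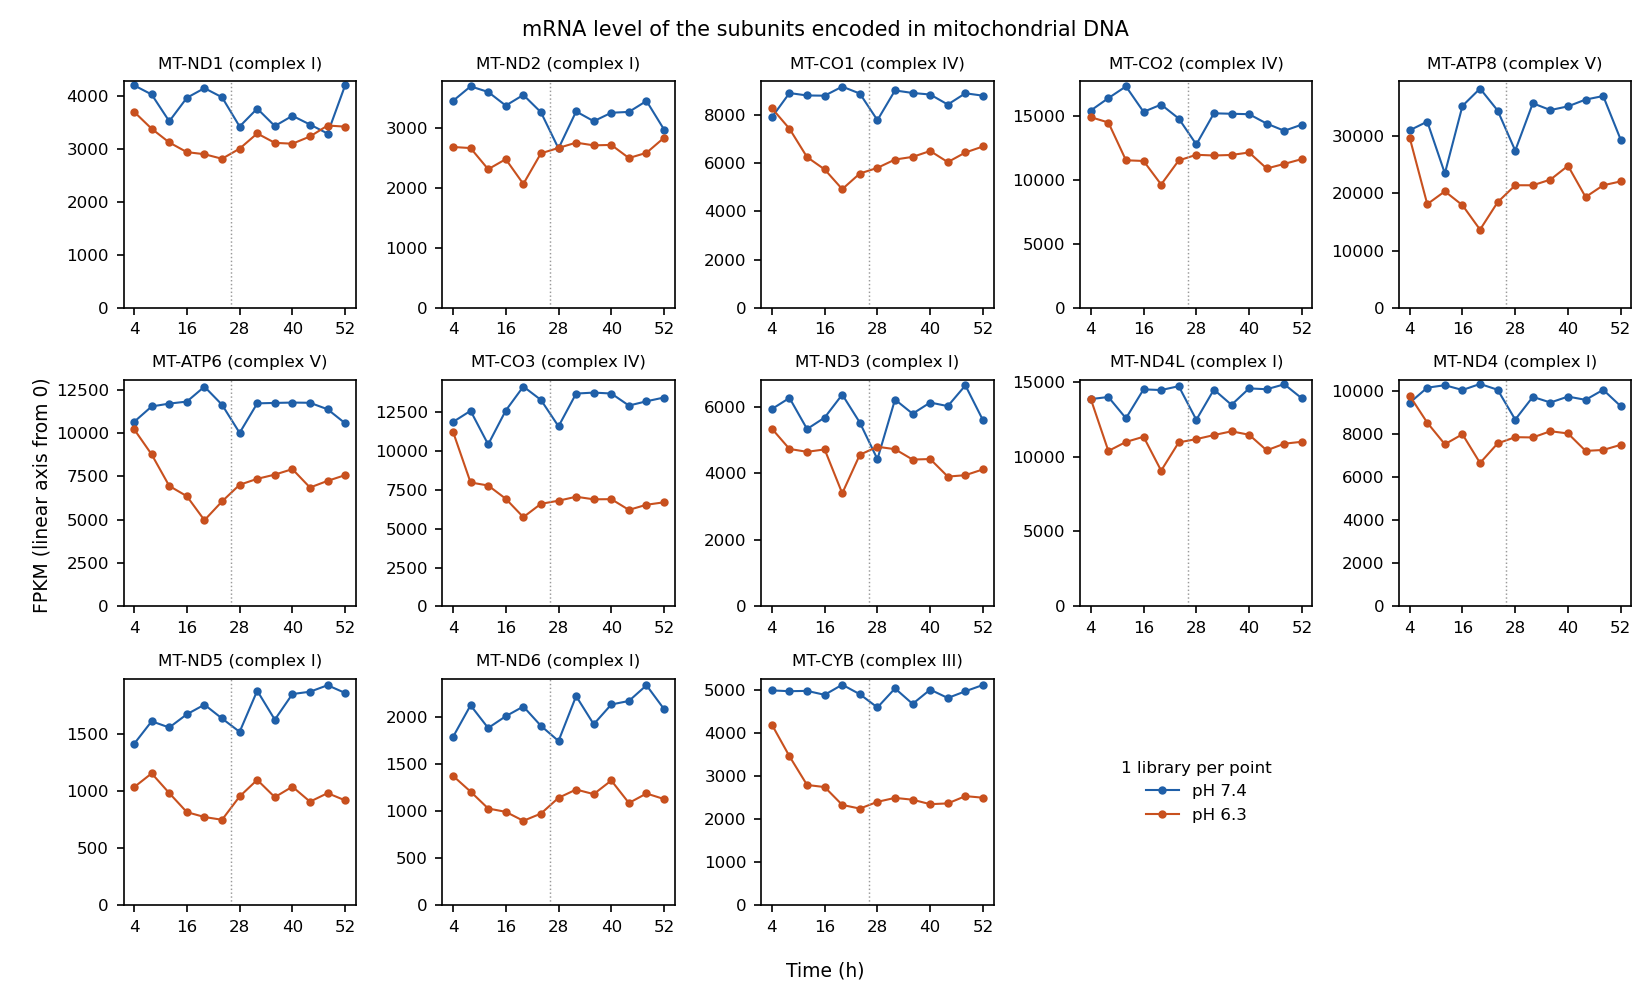
FPKM (y axis, linear, from 0) against time (x axis, h) for each of the 13 mitochondrial subunit genes in map order, with 1 library per point, pH 7.4 in blue and pH 6.3 in orange. The dotted line separates the plate sets; in MT-ND5, MT-ND6 and MT-CYB every acid point lies below every neutral point, while most others start close together at 4 h.

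In their order on the mitochondrial map, MT-ND1, MT-ND2, MT-CO1 and MT-CO2 differed by -0.24, -0.35, -0.47 and -0.34. MT-ATP8, MT-ATP6 and MT-CO3, which come next, differed by -0.68, -0.67 and -0.86. MT-ND3, MT-ND4L and MT-ND4 follow at -0.40, -0.34 and -0.32, and MT-ND5, MT-ND6 and MT-CYB at -0.85, -0.85 and -0.90. Some neighbours were close, as in both overlapping pairs, and others were far apart, as MT-CO3 and MT-ND3 or MT-ND4 and MT-ND5. The order of the 13 differences was not tested, since the genes share transcripts and libraries. The 6 genes without a complete stop codon included both the smallest difference (MT-ND1) and the largest (MT-CYB).

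**Figure D3:**
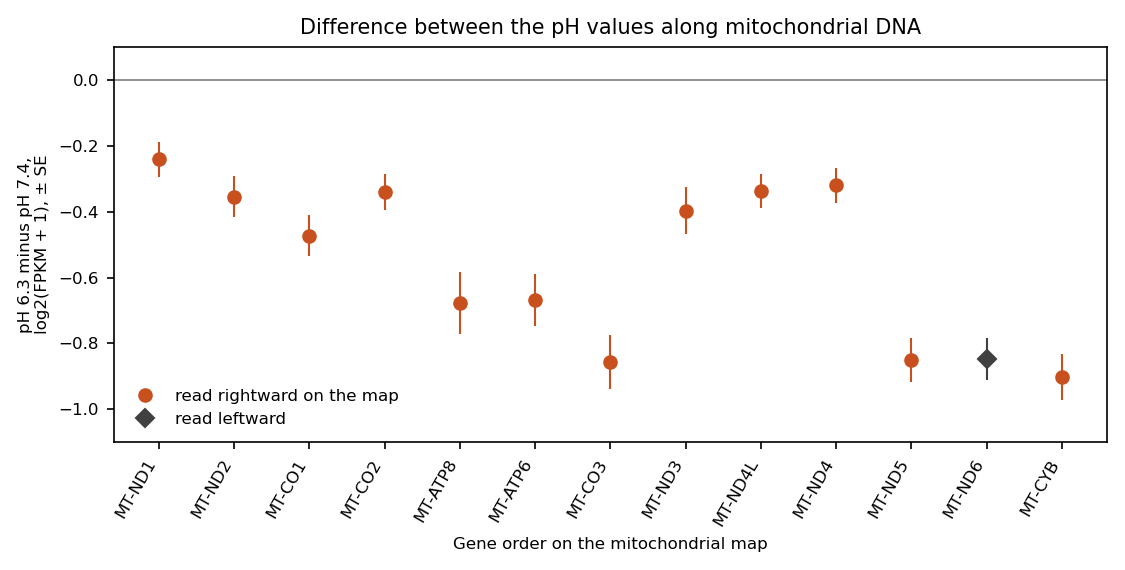
Difference between pH 6.3 and pH 7.4 (y axis, log2(FPKM + 1), point and SE over 13 time points) for the 13 mitochondrial genes in their order on the map (x axis). MT-ND6, read in the opposite direction, is the dark diamond; the differences run from -0.24 in MT-ND1 to -0.90 in MT-CYB, with steps between neighbours such as MT-CO3 (-0.86) and MT-ND3 (-0.40).

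The median mitochondrial difference was smallest at 4 h, and its course over time was not tested. At 4 h 10 of the 13 genes were lower, against 46.4% of all genes tested, and the median of the 13 was -0.08. It was -0.43 at 8 h, -0.62 at 16 h, -0.90 at 20 h and -0.67 at 24 h. From 28 to 52 h it stayed between -0.36 and -0.65. The median of all genes tested was -0.13, -0.26, -0.07 and -0.13 at 8, 16, 20 and 24 h. The acid library of 8 h was shallow (estimated at 11.3 M fragments). In that of 20 h levels rose with transcript GC content (r = 0.58). MT-CYB fell from 4200.5 FPKM at 4 h to 2244 at 24 h in acidic medium. Its difference by time was -0.25 at 4 h, -0.84 at 12 h and between -0.93 and -1.14 from 20 h on.

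As a share of all summed FPKM, the 13 mitochondrial genes took 19.6 ± 1.54% (SD over 13 time points) at pH 7.4 and 13.8 ± 1.37% at pH 6.3. Summed FPKM is not a share of fragments and gives short genes more weight. MT-ATP8, whose level is uncertain, had the highest mean of the 13, 33155 FPKM at pH 7.4. Both the share and the ratio below lean on it in part. The share was lower in acid at 13 of 13 times, with a difference of -1.11 points at 4 h and -9.97 points at 20 h, the extremes. The 43 nuclear genes together took 1.23 ± 0.04% and 1.23 ± 0.08%. The ratio of the mitochondrial sum to the nuclear sum was therefore 16.0 ± 1.64 in neutral and 11.2 ± 0.789 in acidic medium, with every acid library (at most 12.1) below every neutral one (at least 13.4). The neutral library of 28 h, with its GC correlation of 0.65, had the lowest neutral share (16.7%), and the acid library of 20 h, at 0.58, the lowest share of all (10.6%). With the GC correction all 13 genes still passed as lower. In bulk RNA, fewer mitochondrial transcripts per cell and a change in the mix of cells cannot be told apart. The libraries were of polyadenylated RNA, and the tails of the mitochondrial transcripts were not measured.

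Taken complex by complex at each hour, the median of the mitochondrial genes minus that of the nuclear genes was below 0 at 13 of 13 times in complexes III and IV, at 12 of 13 in complex V and at 11 of 13 in complex I. Complex III had the widest gap, -1.04 ± 0.36 (mean and SD over 13 times), and rests on MT-CYB alone. The gap was -0.52 ± 0.20 in complex IV, -0.33 ± 0.22 in complex I and -0.32 ± 0.25 in complex V. Taken from the fitted differences, quantile normalization turned the gap of complex V from -0.29 to 0.45 and moved that of complex IV from -0.54 to -0.0202. Without quantile normalization, the hourly gap came above 0 at 16 and 28 h in complex I and at 52 h in complex V. For all complexes together this hourly gap was below 0 at 13 of 13 times, from -0.15 at 28 h to -0.81 at 44 h.

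**Figure D4:**
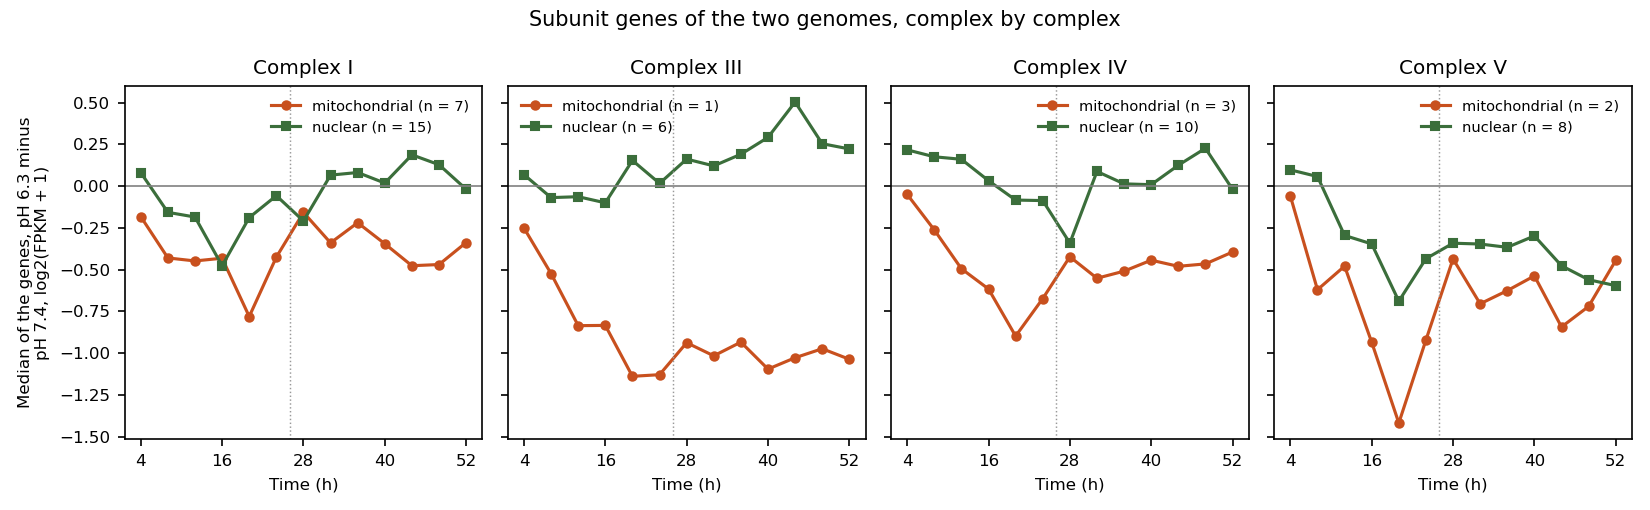
Median difference between pH 6.3 and pH 7.4 (y axis, log2(FPKM + 1)) at each time (x axis, h) over the mitochondrial genes (orange circles) and the nuclear genes (green squares) of complexes I, III, IV and V, with the number of genes in each legend. The orange line lies below the green one at 13 of 13 times in complexes III and IV, and both lie below 0 from 12 h on in complex V.

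The plate sets were also fitted apart. Within 4 to 24 h only COX8A passed as higher, 7 nuclear genes passed as lower, and 13 of 13 mitochondrial genes passed as lower, against 8.57% higher and 18.1% lower of all genes tested. Within 28 to 52 h 14 nuclear genes were higher and 15 lower, and 13 of 13 mitochondrial genes were lower, against 27.0% and 36.4%. The nuclear share of rises thus lay below that of all genes tested in the early set and above it in the late one. By the sign of the estimate alone, 10 nuclear genes were lower in acid in the early set and higher in the late one, and 3 the reverse. Estimates near 0 are included, and such sign changes were not counted over all genes tested, so these counts have no background. The median difference of all genes tested also moved, from -0.14 early to -0.10 late. MT-CYB differed by -0.79 early and -1.003 late, and MT-ND1 by -0.34 and -0.15.

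The change between plate sets was itself tested, as the interaction of pH and plate set (limma, same threshold). No mitochondrial gene passed, and 1 had an unadjusted p below 0.05, a level not counted over all genes. In the late set 10 nuclear genes were shifted upward and 1, ATP5G3, downward, against 10.5% and 6.56% of all genes tested. NDUFB10 went from -0.04 early to 1.01 late, NDUFS3 from -0.16 to 0.76 and NDUFS1, a core subunit of the matrix arm, from -0.20 to 0.67. Of complex II, 3 subunits were among the 10: SDHD went from -0.08 to 0.48, SDHB from -0.05 to 0.51 and SDHA from 0.26 to 0.75, whereas SDHC was low in both sets (-0.61 and -0.70). These calls depended on some time points: leaving out the pairs at 8, 12, 20 and 28 h, which hold the 2 shallowest libraries and 2 with strong GC trends, kept 3 of the 10 upward calls by count, and leaving out 44 and 48 h as well kept 0. The fewer samples also lower what the test can call.

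**Figure D5:**
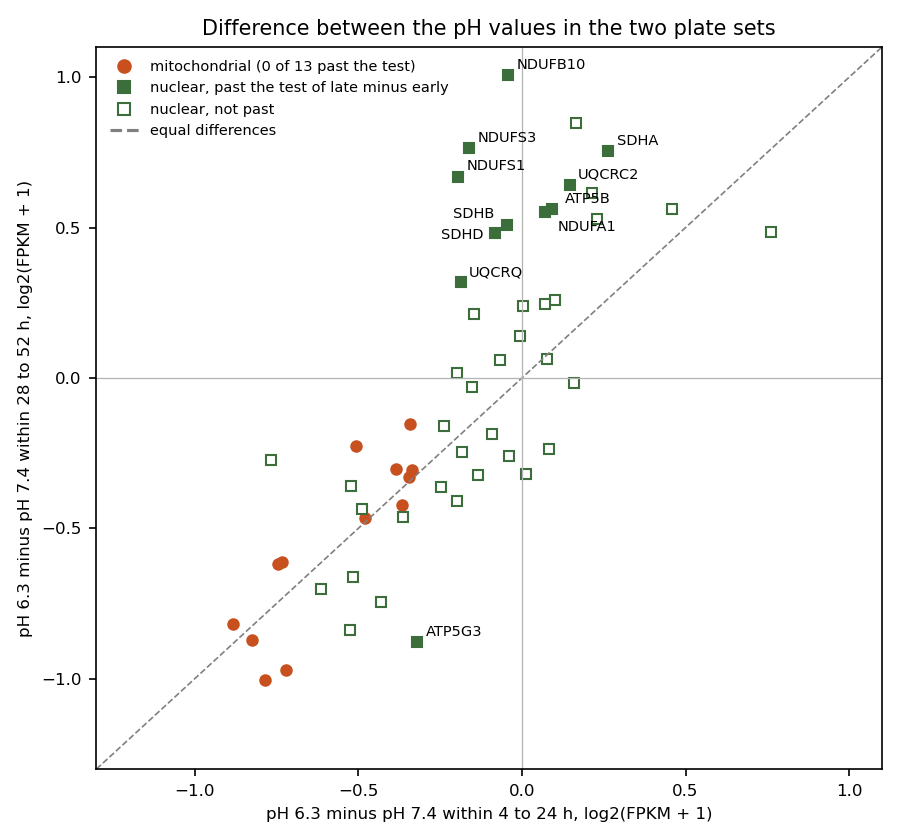
Difference between pH 6.3 and pH 7.4 within 28 to 52 h (y axis) against that within 4 to 24 h (x axis), both in log2(FPKM + 1), for the 56 genes. Orange circles are mitochondrial genes, near the dashed line of equal differences; filled green squares are the 11 nuclear genes past the test of late minus early, 10 above the line and ATP5G3 below it.

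Over time within a medium, no mitochondrial gene had a linear trend at pH 7.4. There 11 nuclear genes declined and 0 rose, against 9.39% rising and 8.46% declining of all genes tested. The steepest were NDUFS8 (-0.57 per 24 h), COX8A (-0.54), CYC1 (-0.53), COX4I1 (-0.51) and NDUFV1 (-0.38), and with plate set as a term 0 nuclear declines passed. The transcripts of NDUFS8 and NDUFV1 were 62.4% and 59.9% GC.

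At pH 6.3 MT-CYB (-0.27 per 24 h, adjusted p = 0.0011) and MT-CO3 (-0.22, adjusted p = 0.00972) declined, while 7 nuclear genes rose and 14 declined, against 28.1% rising and 19.8% declining of all genes tested. NDUFS1 (0.69 per 24 h), NDUFB10 (0.64) and NDUFS3 (0.47) rose most, and ATP5G3 (-0.59) and ATP5C1 (-0.47) declined most. With plate set as a term, 0 nuclear rises and 8 nuclear declines passed.

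No subunit gene of either genome passed the test for a 24 h rhythm. At pH 7.4 0.0422% of all genes tested passed (5 genes), and at pH 6.3 0.0%. At an unadjusted p below 0.05 the counts were 0 mitochondrial and 0 nuclear genes at pH 7.4, and 4 and 3 at pH 6.3. The share of all genes tested at that unadjusted level was not counted, so these counts have no background. The mitochondrial genes also share transcripts and libraries.

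The other genes of the pathway were taken from lists of subunits, assembly factors and regulators, with 22.4% higher and 37.3% lower as the background throughout. Of 22 other nuclear subunits of complex I, 4 rose and 7 fell, among them NDUFA7 (0.52 ± 0.15), NDUFS4 (0.29 ± 0.08), NDUFB1 (-0.60 ± 0.11) and NDUFB2 (-0.52 ± 0.09). UQCRH, a hinge protein of complex III, rose by 0.38 ± 0.06, at 13 of 13 times. COX7A2L, which ties complex III to complex IV in supercomplexes, rose from 149.97 ± 9.1 to 298 ± 70.7 FPKM (SD over 13 times), by 0.95 ± 0.10 (adjusted p = 1.91e-06), also at 13 of 13 times. COX7B, the other tested gene of the complex IV list (2 of 9 reached 1 FPKM), fell by -0.27 ± 0.07. ATP5G1, another gene for the ring subunit, rose by 0.70 ± 0.15, while its relative ATP5G3 fell. Of the 10 other ATP synthase subunits 3 rose and 4 fell, including USMG5 (0.23 ± 0.08), ATP5F1 (-0.44 ± 0.07) and ATP5J2 (-0.30 ± 0.07).

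Assembly factors are needed to build the complexes without being part of them. Of 14 for complex I, 1 rose (NDUFAF2, 0.20 ± 0.07) and 8 fell, among them TMEM126B (-0.86 ± 0.11) and NDUFAF6 (-0.81 ± 0.09), with a median of -0.41 for the list. Of 22 for complex IV, 4 rose and 12 fell. COX14, which binds newly made MT-CO1, rose from 26.5 ± 3.29 to 56.8 ± 18.4 FPKM, by 1.00 ± 0.13 (adjusted p = 1.22e-05), and COX19 rose by 0.63 ± 0.16. TACO1, an activator of MT-CO1 translation, fell by -0.98 ± 0.17, and COX20, a chaperone of MT-CO2, by -0.88 ± 0.10. Of 10 for complexes II and III, 2 rose (UQCC1, 0.55 ± 0.17, and SDHAF1, 0.46 ± 0.14) and 4 fell, with UQCC2 at -0.81 ± 0.12 and LYRM7 at -0.64 ± 0.13. Of 4 for the ATP synthase 0 rose and 1 fell (ATPAF1, -0.40 ± 0.11).

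The 15 genes for electron carriers, ubiquinone and cytochrome c, held 4 rises and 6 falls. Cytochrome c itself (CYCS) rose from 131 ± 40.0 to 203 ± 43.4 FPKM, by 0.64 ± 0.11 (adjusted p = 0.000161). COQ10B, a ubiquinone-binding protein, rose by 1.47 ± 0.12, at 13 of 13 times. PDSS1 and COQ3, enzymes of ubiquinone synthesis, fell by -1.20 ± 0.13 and -1.19 ± 0.16.

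Of 16 genes that copy or transcribe mitochondrial DNA 11 fell, 4 rose and 1 did not pass, with a median of -0.55. POLRMT, the mitochondrial RNA polymerase, rose by 0.77 ± 0.26 (adjusted p = 0.0169) and TFB2M, which opens the promoter with it, by 0.68 ± 0.15. MTERF3, a repressor of mitochondrial transcription, fell from 16.6 ± 2.14 to 7.01 ± 1.70 FPKM, by -1.15 ± 0.11 (adjusted p = 9.18e-07), and PRIMPOL, a primase-polymerase, by -1.20 ± 0.17. Of 22 genes for mitochondrial RNA processing, stability and decay, 2 rose and 11 fell. TRMT10C, a subunit of the enzyme that cuts tRNA 5′ ends out of the long transcripts, fell from 44.3 ± 4.77 to 20.6 ± 2.27 FPKM, by -1.07 ± 0.07 (adjusted p = 4.37e-08). FASTKD1, an RNA-binding protein of mitochondria, fell by -1.07 ± 0.11, and FASTKD5 and NSUN4, both needed for normal mitochondrial RNA or ribosomes, rose by 0.64 ± 0.14 and 0.85 ± 0.12.

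Among 10 regulators of nuclear respiratory genes 5 fell and 0 rose, with GABPB1 at -0.44 ± 0.10 and NRIP1, a corepressor, at -0.71 ± 0.13. Binding motifs of a pair of these regulators were looked for in the promoters of the subunits, because the nuclear genes share no promoter and moved both ways. RefSeq (GRCh38.p14) gave a promoter of 300 bases, 250 before the start and 50 after it, for 34 of the 43 nuclear genes. The core of the NRF1 site, GCGCATGC on either strand, was in 8 of the 34 (23.5%) and in 3.27% of 27305 promoters. It lay in 2 of 10 that rose, 3 of 10 that fell and 3 of 14 that did not pass. The core of the ETS (GABP) site, CCGGAAGT on either strand, was in 6 of 34 (17.6%) and in 4.44% of all. It lay in 1 of 10, 1 of 10 and 4 of 14. The 27305 promoters were not limited to genes expressed here, so they are not a matched background for either motif. The promoters of SDHB, which rose, and ATP5C1, which fell, were chosen after their values were seen and are shown because both hold the NRF1 core (capitals), at chr1:17053983-17054282 (-) and chr10:7787927-7788226 (+). In ATP5C1 a forward and a reverse match overlap.
SDHB: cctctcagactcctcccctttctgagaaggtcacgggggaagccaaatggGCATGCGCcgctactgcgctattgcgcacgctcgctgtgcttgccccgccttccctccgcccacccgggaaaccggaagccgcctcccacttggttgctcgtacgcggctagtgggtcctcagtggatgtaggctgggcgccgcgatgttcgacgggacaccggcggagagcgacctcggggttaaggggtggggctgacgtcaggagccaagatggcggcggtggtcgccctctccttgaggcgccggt
ATP5C1: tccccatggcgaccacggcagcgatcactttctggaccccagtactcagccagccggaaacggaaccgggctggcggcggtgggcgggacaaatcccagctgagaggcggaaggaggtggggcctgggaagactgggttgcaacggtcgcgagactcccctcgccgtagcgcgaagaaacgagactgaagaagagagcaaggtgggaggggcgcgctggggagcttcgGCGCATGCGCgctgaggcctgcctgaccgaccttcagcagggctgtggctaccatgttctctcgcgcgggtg

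Removal of mitochondria and oxidant defence were looked at beside the chain. Of 10 tested genes of mitophagy and mitochondrial dynamics 3 rose and 4 fell: the mitophagy receptors BNIP3 (0.70 ± 0.13) and BNIP3L (0.45 ± 0.08) rose, and PINK1 (-0.82 ± 0.14) and the receptor FUNDC1 (-0.65 ± 0.12) fell. SOD2, the superoxide dismutase of the matrix, rose from 53.8 ± 5.19 to 164 ± 99.3 FPKM, by 1.32 ± 0.24 (adjusted p = 0.000197). In the early set SOD2 differed by 0.48, and in the late set by 2.05. UCP2, an inner-membrane carrier of the uncoupling protein family, fell by -1.06 ± 0.21, and PRDX3, a peroxidase of the matrix, by -0.24 ± 0.06.

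Depth was not in the table and was estimated from the spacing of low values, at 20.1 to 35.9 M fragments (M for mega) in 24 libraries, 9.63 M at pH 7.4 12 h and 11.3 M at pH 6.3 8 h. Whole multiples of these depths would fit the spacing as well. Of 9 osteoblast-lineage markers 5 had a mean of at least 1 FPKM, with SP7 listed at 0 in every library. The leukocyte, endothelial and muscle lists had 0 of 4, 0 of 2 and 0 of 3 markers at that level, and the epithelial list 2 of 4 (EPCAM and CLDN4). The summed epithelial list was 5.84 to 12.5 FPKM at pH 7.4 and 3.91 to 7.90 at pH 6.3, and its part in the results was not tested. Mitochondrial genes have copies in the nuclear genome, and fragments from them could not be separated here.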

How the data were processed

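Polyadenylated RNA of 26 U2OS cultures was measured. The authors deposited 1 table of FPKM values, which per the submitters' processing notes come from STAR, Cufflinks and hg38. Tool versions, annotation and strandedness of the counting were not given in the sources used here. Of 19806 rows, 101 symbols were on more than 1, and the row with the highest mean stood for the gene. log2(FPKM + 1) was fitted with limma 3.58.1 in R 4.3.3 (trended empirical Bayes, Benjamini-Hochberg 0.05), over 11838 genes whose mean reached 1 FPKM. The time point was a block, since both media of a time were harvested together. Plate set entered as an interaction with pH. Trends and cosine terms of 24 h were fitted per medium. FPKM are not counts, so no count test was used, and the pseudocount understates changes of low genes. The fits were checked on simulated data.

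The 56 members, the gene lists and the tests were chosen with earlier results of these data known. Named were all 13 mitochondrial genes, per complex up to 2 nuclear rises and 2 falls past the threshold, per other list up to 2 each way with at least 5 FPKM in the higher medium, and up to 5 genes per test and genome for plate set, trend and rhythm. Other members are named with their estimate. Depth was estimated from 1808 single-transcript genes, where 86.8% to 94.4% of values up to 3.5 fragments lay within 0.1 of a whole number. Coordinates and GC content came from GENCODE 29, which held all 56 members. Alternatives were other pseudocounts, filters and scalings, a GC correction, no block and fewer time points. Plate set as a term of the trend was added after the data were seen.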

Additional observations from a re-analysis of the deposited data

Results flagged for a closer look

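The difference between the media changed between the plate sets (28 to 52 h minus 4 to 24 h, log2 scale, interaction of pH and plate set in limma) in 11 nuclear subunit genes. It moved upward in NDUFB10 (1.05, adjusted p = 0.00192), NDUFS3 (0.92, adjusted p = 0.000799), NDUFS1 (0.87, adjusted p = 0.00198), SDHD (0.56, adjusted p = 0.00608), SDHB (0.55, adjusted p = 0.00372), UQCRQ (0.51, adjusted p = 0.0153), UQCRC2 (0.50, adjusted p = 0.0237), SDHA (0.49, adjusted p = 0.0447), NDUFA1 (0.48, adjusted p = 0.0118) and ATP5B (0.47, adjusted p = 0.00559). It moved downward in ATP5G3 (-0.56, adjusted p = 0.0158). Of these 11, 4 belong to complex I, 3 to complex II, 2 to complex III and 2 to complex V. By the same test, 10.5% of all genes tested moved upward and 6.56% downward. Without the pairs that hold the shallowest libraries and those with strong GC trends, 3 upward and 0 downward calls were left by count. With the further late pairs named above also left out, 0 upward and 0 downward calls were left. Fewer samples also lower what the test can call. The groups of 13 libraries were too large for the check on single distant samples.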

How the results depend on the processing

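Over 11 alternatives to the fit, 563 of 616 member values kept direction and side of the threshold. Leaving out 1 time point kept 691 of 728, with no reversal. Quantile normalization, which gives every library the same highest values and so fixes the top ranks that mitochondrial genes fill, changed most: mitochondrial counts became 7 lower and 1 higher, MT-ND4 reversed to 0.26, MT-CO2 to 0.0171 (adjusted p = 0.613) and MT-ND4L to 0.0055 (adjusted p = 0.9). It gave 7 nuclear rises and mitochondrial minus nuclear gaps of -0.22 overall (-0.52 before), -0.0202 in complex IV (-0.54 before) and 0.45 in complex V (-0.29 before, so reversed). It also moved the median of all genes from -0.12 to -0.02.

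Scaling without mitochondrial genes gave 7 nuclear rises. For plate set, mitochondrial shifts upward numbered 1 with the GC correction, and quantile normalization gave 1 upward and 1 downward. Nuclear upward shifts fell from 10 to 3 without the pairs at 8, 12, 20 and 28 h, and to 0 without 44 and 48 h as well. Nuclear downward shifts were 2 with scaling without mitochondrial genes or by the upper quartile, and 0 without either set of pairs. Leaving out 1 time point gave 8 to 11 nuclear and 0 to 1 mitochondrial upward shifts and 1 to 2 nuclear downward shifts, 13 mitochondrial falls, 9 to 14 nuclear rises and 14 to 15 nuclear falls. The share moved between -6.22 and -5.48 points, and the gap between -0.55 and -0.47 (complex I -0.41 to -0.30, III -1.05 to -0.95, IV -0.57 to -0.51, V -0.32 to -0.27).

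For trends at pH 6.3, mitochondrial declines (2) became 4 with the GC correction or plate set as a term, 1 with quantile normalization or scaling without mitochondrial genes and 5 with upper-quartile scaling. Quantile normalization gave 5 mitochondrial rises. Nuclear rises (7) became 11 and declines (14) became 9 with scaling without mitochondrial genes, and 0 and 8 with plate set as a term. At pH 7.4 quantile normalization gave 2 and scaling without mitochondrial genes 3 mitochondrial rises, and the GC correction 2 mitochondrial declines. Nuclear declines (11) became 7, 4 and 0 with quantile normalization, scaling without mitochondrial genes and plate set as a term. The causes were not tested.

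Without the replicate block by time point, 53 of 56 members kept their call (2 gained and 1 lost). Polyadenylated tails, protein and mitochondrial number were not measured.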
